A study of Mus musculus with 4 samples.

Results

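The genes described here, Wnt4, Wnt5a, Rspo1, Lgr6, Fzd1, Sfrp1, Sfrp2, Sfrp4, Lef1 and Axin2, belong to Wnt signalling and were followed across the cell classes of the mouse ovary. They were chosen by name, with earlier results of these data known, and make up 10 of the 32285 genes counted. They were read beside a list of 86 genes of the same pathway, to which they belong. RNA molecules were counted by their unique molecular identifiers (UMIs) with 10x Genomics single-cell RNA sequencing in 4 ovarian libraries from 8-week-old female mice. The 2 Fosl2F/F libraries, the controls, came from Fosl2flox/flox mice without Cre, which the labels call WT. The 2 libraries labelled Fosl2cKO came from littermates with Cyp19a1-Cre and Fosl2flox/flox. Their Cre is made from the Cyp19a1 promoter, which the study describes as specific to granulosa cells (GCs), and LoxP sites flank exons 2 to 4 of Fosl2. Both groups therefore carried floxed alleles, only 1 of them carried Cre, and a control with Cre alone was not analysed here. Vaginal smears of the mice were in estrus.

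Wnt ligands are secreted glycoproteins that bind Frizzled receptors, and in the canonical branch stabilize beta-catenin, which acts with nuclear factors such as Lef1 to switch on targets such as Axin2. R-spondins act through Lgr receptors to keep Frizzled receptors on the cell surface, and secreted Frizzled-related proteins (Sfrps) bind Wnts outside the cell. In the ovary, Wnt4 and Rspo1 are known for their part in female sex determination, and Sfrp4 for its high level in corpora lutea.

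The libraries held 120327227 to 148836173 UMIs, and 41538 cells remained after the filters and the removal of doublets. The 2nd Fosl2F/F library held 19575 cells at a median of 3655 UMIs, whereas the other 3 held 6760 to 8150 cells at medians of 11177 to 12465 UMIs. Libraries shared 15 to 81 cell barcodes in pairs, at most 0.763% of the smaller library. Names with the suffix "-like" were given to clusters by their markers, the 86 pathway genes having been kept out of the features used for clustering, and 13 classes had at least 20 cells in every library. Cluster 2, with 3644 cells led by Abcb1b, Hao2 and Adh1, remained without a name. Luteal and theca markers scored alike in it. Only 2 luteal markers reached the level set by the naming rule, which asked for at least 3. Levels are given in CPM, the UMIs of the gene scaled to 1e+06 UMIs of the class in a library. Differences between conditions are given as log2FC (labelled Fosl2cKO relative to Fosl2F/F, both scaled by TMM) with the standard error (SE) and a p adjusted over all genes of the class, from the quasi-likelihood test of edgeR unless another tool is named. A difference passed with an adjusted p below 0.1 and a log2FC beyond 0.25 in size. In GC-like cells, the targeted gene Fosl2 was at 161 and 167 CPM in the controls and at 167 and 115 CPM in those labelled Fosl2cKO (log2FC -0.25, SE 0.20, adjusted p = 0.9996), so that the 1st of the latter lay as high as the controls. The counts do not separate the exons of Fosl2, and the wording "labelled Fosl2cKO" is kept for this reason. By immunoblot, the study reported depletion of Fosl2 protein in the GCs of Fosl2cKO mice. RNA counts do not measure protein, and that blot is not tied to these libraries in the sources used here. The labels do not tie a library to an animal, so p-values measure the spread between these libraries only.

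The 10 genes were spread over 4 named classes and cluster 2 by their highest mean level, among the 13 classes with at least 20 cells in every library. Wnt4 and Wnt5a were highest in cluster 2, Rspo1, Lgr6 and Axin2 in epithelial-like cells, Fzd1 and Sfrp1 in stromal-like cells, Sfrp2 and Sfrp4 in luteal-like cells and Lef1 in NK or T-like cells. In 8 of the 10 the lowest library of the leading class lay above every library of the next class, while Lgr6 and Sfrp4 overlapped with the next. None of the 10 was highest in GC-like cells, the class that Cyp19a1-Cre is meant to target. Recombination was not measured in any class, and whether luteal-like cells also carried the recombined allele was not tested. Clusters were built from these cells, so the differences between classes are descriptions without a test.

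**Figure D1:**
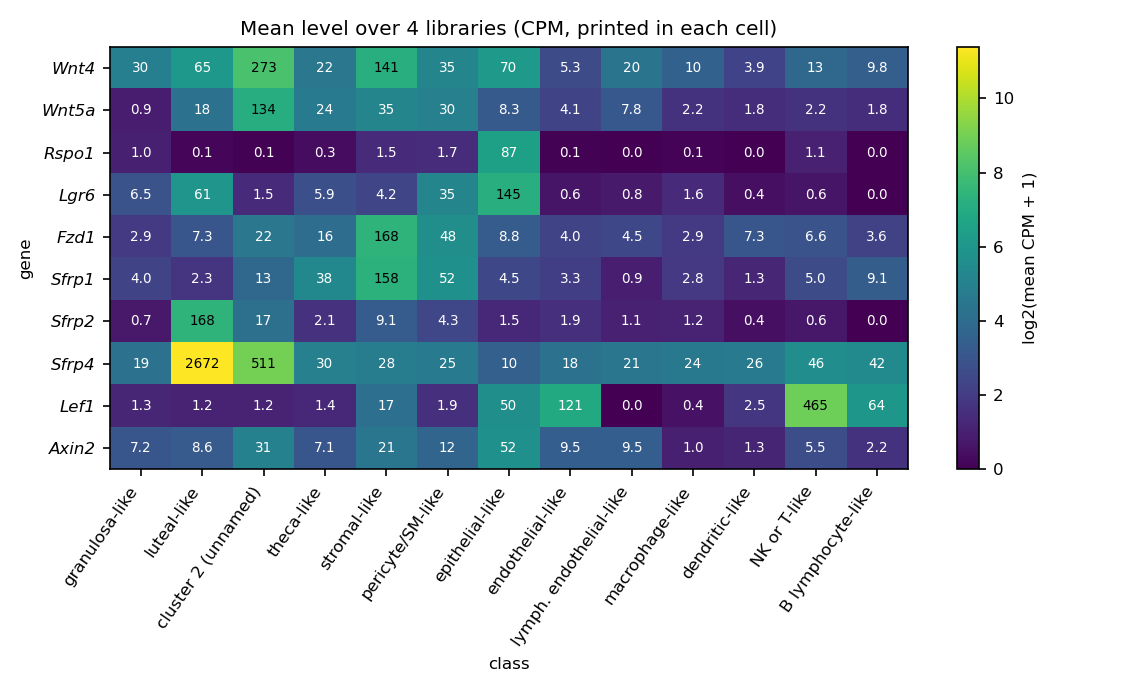
Mean level of the 10 genes (rows) in 13 classes (columns), in CPM over 4 libraries; colour shows log2(mean CPM + 1) and the printed number the mean CPM. Sfrp4 in luteal-like cells (2672 CPM) and Lef1 in NK or T-like cells (465 CPM) stand out. The level of Rspo1 is by far highest in epithelial-like cells (86.5 CPM, at most 1.69 CPM in the other classes shown).

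Among the ligands, Wnt4 (ENSMUSG00000036856, chromosome 4 of GRCm38 from 137277489 to 137299726, plus strand, 5 exons in its principal transcript, as given for each gene) was most abundant in cluster 2, at 324 and 224 CPM in the controls and 326 and 218 CPM in those labelled Fosl2cKO. One library of each group was high and 1 low there, so the groups overlapped. Stromal-like cells followed with 155 and 121 CPM against 147 and 143 CPM, below every library of cluster 2 and above every library of the epithelial-like class, which had a mean of 69.9 ± 12.5 CPM (SD, n = 4). Epithelial-like, luteal-like and pericyte or smooth muscle-like cells overlapped with their neighbours in the order of means. Between conditions, Wnt4 in cluster 2 had a log2FC of -0.04 (SE 0.31, adjusted p = 0.9999).

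Luteal-like cells differed from this. Wnt4 was at 157 and 88.6 CPM in the controls, from 550 and 1429 UMIs, and at 6.30 and 9.06 CPM in those labelled Fosl2cKO, from 44 and 57 UMIs. The groups did not overlap, as was the case for 47.1% of all genes tested in this class. The log2FC was -4.13 (SE 0.43), and with an adjusted p = 0.157 it missed the threshold. Over 17 alternatives the log2FC stayed between -4.47 and -3.35 while the adjusted p ran from 1.91e-19 to 0.570, past the threshold in 3 of them. Without the 1st library labelled Fosl2cKO the adjusted p was 0.0883, and DESeq2 gave 4.55e-14. Wnt4 was also lower in both luteal-like clusters that make up the class, as given further on.

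Wnt5a (ENSMUSG00000021994, chromosome 14 from 28504750 to 28527448, plus strand, 5 exons), a ligand best known for signalling without beta-catenin, was also highest in cluster 2, at 129 and 117 CPM against 156 and 132.5 CPM. It was 3.81 times the mean of stromal-like cells (35.1 ± 9.07 CPM, SD, n = 4), the next class, which overlapped with pericyte or smooth muscle-like cells. In GC-like cells it was listed at 0.880 and 1.27 CPM against 0.821 and 0.661 CPM, from 32 to 63 UMIs a library. In cluster 2 its log2FC was 0.20 (SE 0.27, adjusted p = 0.9999). Across 13 classes the log2 levels of Wnt4 and Wnt5a had a Pearson correlation of 0.80, a description over class means that share libraries.

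**Figure D2:**
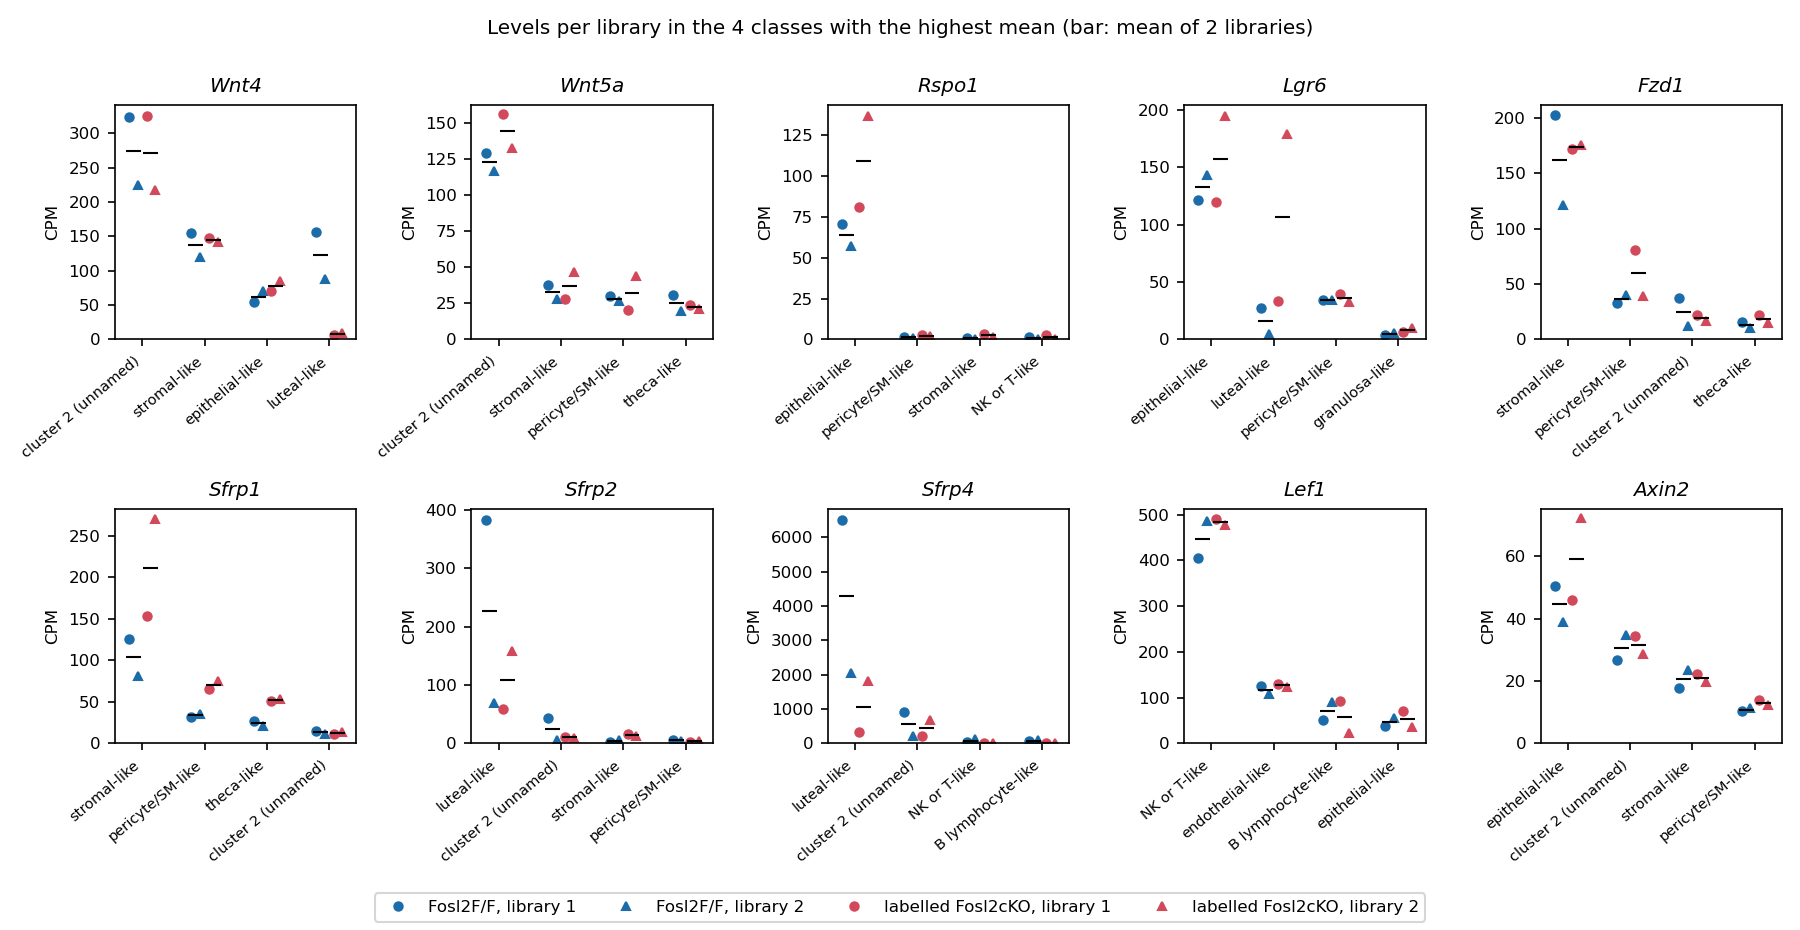
Level of each gene (CPM, linear axis from 0) in its 4 highest classes, 1 point a library (blue, Fosl2F/F; red, labelled Fosl2cKO; circle and triangle, library 1 and 2) and a bar for the mean of each group. The red points for Wnt4 in luteal-like cells (6.30 and 9.06 CPM) sit below both blue points (157 and 88.6 CPM), and the red points for Sfrp1 sit above the blue ones in stromal-like, pericyte or smooth muscle-like and theca-like cells.

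Of the R-spondin branch, Rspo1 (ENSMUSG00000028871, chromosome 4 from 124986430 to 125009099, plus strand, 6 exons) had by far its highest level in epithelial-like cells. It was at 70.6 and 57.5 CPM in the controls and 81.0 and 137 CPM in those labelled Fosl2cKO, 51.3 times the mean of the next class. Both libraries labelled Fosl2cKO were the higher ones and the groups did not overlap, beside 23.6% of all genes in epithelial-like cells, with a log2FC of 0.71 (SE 0.33) that did not pass (adjusted p = 0.99996). The log2FC was 0.33 without the 2nd and 1.01 without the 1st library labelled Fosl2cKO. In the other whole classes its mean was at most 1.69 CPM, and no UMI was counted in B lymphocyte-like, dendritic-like and lymphatic endothelial-like cells. The cumulus-like subclass of GC-like cells was above that mean, as given further on. Levels in CPM do not give the share of Rspo1 UMIs in a class, so the counts are given as well. Epithelial-like cells held 112 and 167 Rspo1 UMIs in the controls and 286 and 218 in those labelled Fosl2cKO. GC-like cells held fewer in every library, 30 and 49 against 69 and 41. All cells of a library held 154 and 231 against 410 and 292. GC-like cells held 38487329 to 71583606 UMIs of all genes a library, and epithelial-like cells 1586522 to 3529376.

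Lgr6 (ENSMUSG00000042793, chromosome 1 from 134983301 to 135105276, minus strand, 18 exons), a receptor for R-spondins, was highest in the same epithelial-like cells, at 122 and 143 CPM against 120 and 195 CPM. Pericyte or smooth muscle-like cells were the steadiest, at 34.5 and 34.2 CPM against 39.4 and 32.4 CPM. Luteal-like cells spread most, at 27.6 and 4.46 CPM against 33.6 and 179 CPM, and 1 library labelled Fosl2cKO alone was near the epithelial-like level. There the log2FC was 2.65 (SE 1.07, adjusted p = 0.452), and it ran from 1.01 to 4.43 when 1 library at a time was left out.

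Other R-spondin receptors of the list were placed differently: Lgr5 had a mean of 1281 CPM in epithelial-like cells (828 to 1598 CPM), 6.35 times the next class, and Lgr4 a mean of 370 CPM in luteal-like cells (251 to 437 CPM). Rspo1, Lgr6 and Lgr5 thus had the same leading class.

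Fzd1 (ENSMUSG00000044674, chromosome 5 from 4753839 to 4758035, minus strand, 1 exon), the Frizzled receptor of the set, was at 202 and 121 CPM against 172 and 176 CPM in stromal-like cells, 3.48 times the mean of pericyte or smooth muscle-like cells (48.2 CPM). Within the stromal-like class it was among the leading genes of cluster 17, together with Cxcl14, Il34 and Mgp, at 448 and 107 CPM against 178 and 277 CPM. In GC-like cells it was at 2.36 to 3.27 CPM. Between conditions stromal-like cells had a log2FC of 0.09 (SE 0.32, adjusted p = 0.9993), and Fzd1 had no class in which the groups did not overlap.

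Sfrp1 (ENSMUSG00000031548, chromosome 8 from 23411502 to 23449632, plus strand, 3 exons) shared the stromal-like class with Fzd1, at 126 and 81.4 CPM in the controls and 153 and 270 CPM in those labelled Fosl2cKO. In pericyte or smooth muscle-like cells it was at 32.2 and 35.8 CPM against 65.8 and 74.6 CPM, and in theca-like cells at 27.1 and 21.2 CPM against 51.0 and 53.6 CPM. Both libraries labelled Fosl2cKO were above both controls in each of these classes and in GC-like cells (2.74 and 3.51 CPM against 5.16 and 4.57 CPM). The GC-like values are near the floor. Their mean of 3.99 CPM compared with 5.01 CPM in NK or T-like, 3.33 CPM in endothelial-like and 2.76 CPM in macrophage-like cells. The log2FC was 1.01 (SE 0.34), 0.99 (0.25), 1.02 (0.25) and 0.62 (0.26) in stromal-like, pericyte or smooth muscle-like, theca-like and GC-like cells. None passed the threshold, with adjusted p-values of 0.648, 0.459, 0.331 and 0.9996 in edgeR. Without the 1st library labelled Fosl2cKO, stromal-like (adjusted p = 0.0734) and pericyte or smooth muscle-like cells (0.0871) passed, theca-like cells passed with DESeq2 (0.0801), and with no filter on low counts theca-like (0.0240) and pericyte or smooth muscle-like cells (0.07003) did. The log2FC in stromal-like cells was 0.58 without the 2nd library labelled Fosl2cKO (adjusted p = 0.962) and 0.709 when the 2nd control was left out (0.826), and in pericyte or smooth muscle-like cells it ran from 0.098 to 1.07 over the alternatives. For comparison, groups did not overlap for 29.9% of all genes in stromal-like cells, 30.1% in pericyte or smooth muscle-like, 31% in theca-like and 31.6% in GC-like cells. The 8 stromal markers also summed higher without overlap in theca-like cells (4263 and 4423 CPM against 5796 and 5218 CPM, 3 of 8 genes) and in pericyte or smooth muscle-like cells (3212 and 3716 CPM against 4648 and 4262 CPM, 2 of 8 genes), while the sums overlapped in stromal-like and GC-like cells, and their part in the Sfrp1 difference was not tested. In cluster 2 and luteal-like cells the groups overlapped.

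Sfrp2 (ENSMUSG00000027996, chromosome 3 from 83766321 to 83774316, plus strand, 3 exons) was highest in luteal-like cells, at 383 and 69.0 CPM against 59.7 and 159 CPM, and cluster 2 followed at a mean of 17.2 CPM. In stromal-like cells it was lower but separated, at 2.68 and 5.75 CPM against 15.7 and 12.1 CPM, with a log2FC of 1.68 (SE 0.40, adjusted p = 0.253). In GC-like cells it went the other way near the floor, at 1.10 and 1.01 CPM against 0.340 and 0.372 CPM, from 17 to 79 UMIs a library (log2FC -1.60, SE 0.39, adjusted p = 0.701). The GC-like mean of 0.707 CPM lay below those of endothelial-like (1.95 CPM), epithelial-like (1.49 CPM) and macrophage-like cells (1.21 CPM). The difference between the GC-like and stromal-like effects, on the log2 scale within libraries, was -3.25 (SE 0.46, adjusted p = 0.99995 in limma). It rests on these low GC-like counts.

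Sfrp4 (ENSMUSG00000021319, chromosome 13 from 19623104 to 19632994, plus strand, 6 exons) was the gene of the 10 that passed the threshold in whole classes with edgeR. It passed in 5 classes, and in each it was lower in the libraries labelled Fosl2cKO. With DESeq2, Wnt4 in luteal-like, Lef1 in stromal-like and Sfrp1 in theca-like cells passed as well. In endothelial-like cells it was at 31.5 and 32.3 CPM in the controls and 3.79 and 3.66 CPM in those labelled Fosl2cKO, and fell by 3.08 on the log2 scale (SE 0.38, adjusted p = 0.00871). In NK or T-like cells it was at 48.7 and 115 CPM against 3.77 and 18.0 CPM (adjusted p = 0.0436), and in stromal-like cells at 30.2 and 59.1 CPM against 10.0 and 10.9 CPM (adjusted p = 0.0473). Pericyte or smooth muscle-like cells (38.2 and 46.1 CPM against 8.72 and 5.04 CPM, adjusted p = 0.0568) and theca-like cells (45.9 and 40.9 CPM against 17.7 and 14.4 CPM, adjusted p = 0.0910) completed the 5. The call in endothelial-like cells remained under all 17 alternatives, that in NK or T-like cells under 15, and those in stromal-like, pericyte or smooth muscle-like and theca-like cells under 11, 10 and 9. Of the 5, the stromal-like call was lost with the replicate number as a block. The last 3 calls were kept without either library labelled Fosl2cKO and lost without either Fosl2F/F library, with adjusted p-values up to 0.451, 0.9999 and 0.793. In GC-like cells, the class that Cyp19a1-Cre is meant to target, Sfrp4 was at 17.4 and 44.4 CPM against 5.42 and 7.36 CPM (log2FC -2.28, SE 0.43, adjusted p = 0.482). In macrophage-like cells it was at 27.9 and 48.6 CPM against 5.07 and 13.1 CPM (adjusted p = 0.119). Neither passed, but with the replicate block the adjusted p was 0.0530 in GC-like and 0.0658 in macrophage-like cells, and with DESeq2 3.23e-05 and 0.0278.

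The level of Sfrp4 in these classes was small beside its main sources. Luteal-like cells held 6506 and 2047 CPM against 322 and 1813 CPM, so that both Fosl2F/F libraries were higher than both others, and cluster 2 held 903 and 227 CPM against 221 and 692 CPM, where the groups overlapped. Neither passed, with a log2FC of -2.15 (SE 0.96, adjusted p = 0.477) and -0.35 (SE 0.54, adjusted p = 0.9999). In luteal-like cells the log2FC was -1.07 without the 1st Fosl2F/F library, -1.40 without the 1st and -3.85 without the 2nd library labelled Fosl2cKO, and with no filter on low counts it passed (adjusted p = 0.00449). All other cells together held 4.89% to 9.95% of the Sfrp4 UMIs of a library. Over all cells of a library Sfrp4 stood at 274 and 373 CPM against 58.6 and 168 CPM, and all 11 classes in which it was tested had a log2FC under 0, 9 of them without overlap, beside 32.8% of all gene-by-class tests in either direction.

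In the 5 classes in which Sfrp4 passed, some luteal, granulosa and theca markers were lower too. Of all genes, 15.1% in endothelial-like, 22.3% in NK or T-like, 15.1% in stromal-like, 15.6% in pericyte or smooth muscle-like and 15.2% in theca-like cells were lower without overlap. The 6 luteal marker genes (Ptgfr, Akr1c18, Hsd3b1, Lhcgr, Parm1 and Prlr) summed to 158 to 249 CPM in the endothelial-like cells of the Fosl2F/F libraries against 77.1 to 89.9 CPM in the others, and 5 of the 6 were lower without overlap. In NK or T-like cells the sums were 348 to 509 CPM against 131 to 134 CPM, and in stromal-like cells 220 to 366 CPM against 113 to 154 CPM, with 5 of 6 lower in each. In pericyte or smooth muscle-like cells they were 254 to 374 CPM against 135 to 141 CPM, again with 5 of 6 lower, and in theca-like cells 1469 to 2482 CPM against 1146 to 1618 CPM with 2 of 6 lower. None of the 6 was at 0 in all libraries of these classes. Of the 8 granulosa markers, 5 were lower without overlap in endothelial-like cells (summed 326 to 504 CPM against 180 to 185 CPM), 5 in NK or T-like cells, 5 in pericyte or smooth muscle-like cells, 6 in stromal-like and 4 in theca-like cells. Of the 7 theca markers, 4 were lower in endothelial-like cells (304 to 339 CPM against 133 to 144 CPM) and 4 in NK or T-like cells (404 to 604 CPM against 127 to 210 CPM), 3 in pericyte or smooth muscle-like cells (547 to 777 CPM against 424 to 716 CPM), 2 in stromal-like cells (370.4 to 679 CPM against 308 to 403 CPM) and 2 in theca-like cells (3166 to 5695 CPM against 2230 to 3325 CPM). In these last 3 classes the theca sums overlapped, and 1 theca marker was higher without overlap in stromal-like and 1 in theca-like cells. The 8 stromal markers differed from the other lists. Of them, 2 were lower without overlap in endothelial-like cells and 0 in the other classes of the 5. Higher without overlap were 1 in NK or T-like, 2 in pericyte or smooth muscle-like, 1 in stromal-like and 3 in theca-like cells. The part of RNA from other cells in the Sfrp4 calls was not tested, and whether the background correction that the study describes is in the deposited counts is not given in the sources used here.

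**Figure D3:**
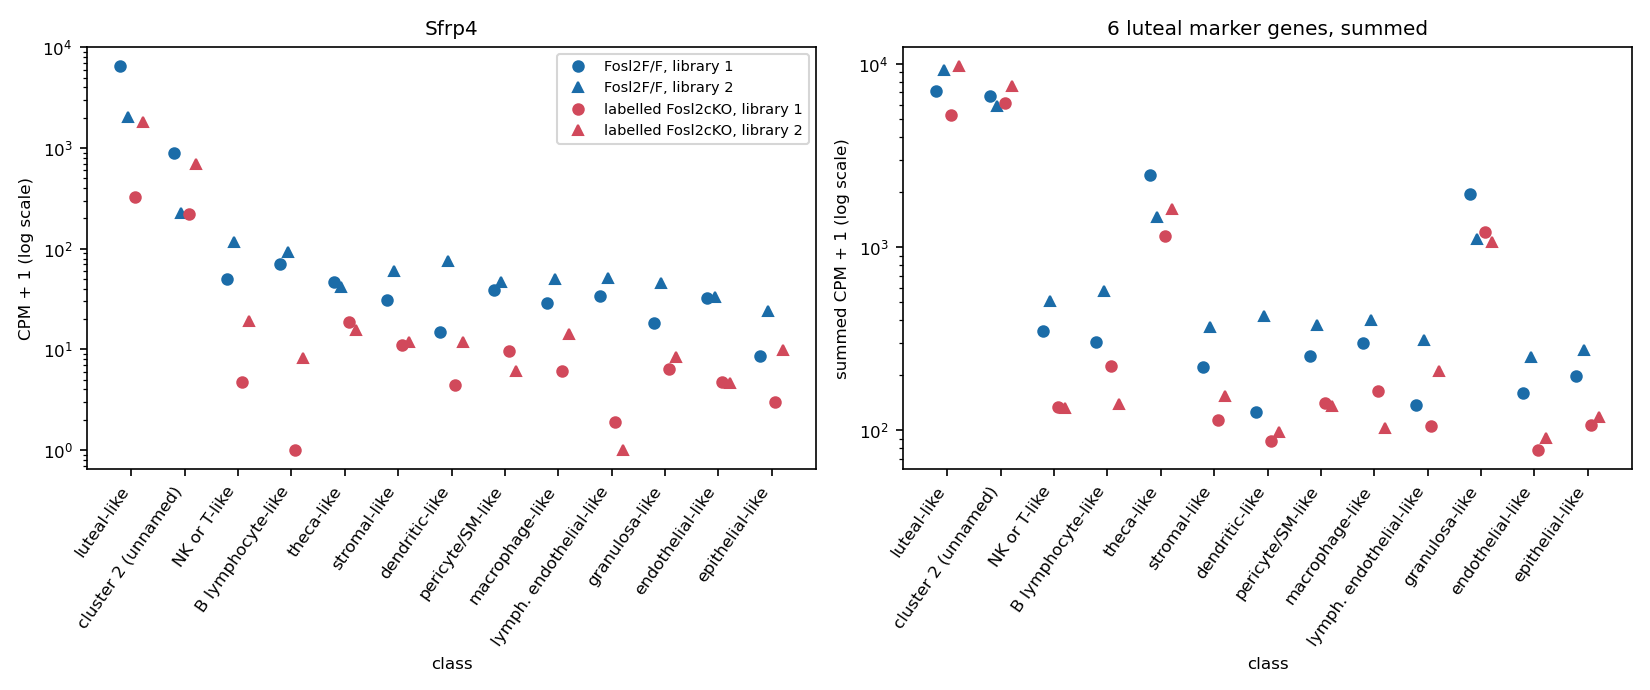
Left, Sfrp4 (CPM + 1, log axis) per library in 13 classes ordered by mean; right, the summed level of 6 luteal marker genes in the same classes. Colours and symbols as for the plot of levels per library. Red points of Sfrp4 lie below the blue ones in luteal-like cells and in most classes with low levels, and the marker sums of the 2 groups do not overlap, controls higher, in 8 of the 13 classes.

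Luteal-like cells consisted of cluster 9, with Bhmt, Plin5 and Runx2 among its leading genes, and cluster 19, with Akr1c18, Sfrp2 and Ptgfr among them, so that Sfrp2 is itself a leading gene of the latter. Akr1c18, which breaks down progesterone in corpora lutea at the end of their life, was at 2618 and 2288 CPM in cluster 19 of the Fosl2F/F libraries and at 166 and 1.63 CPM in that of the others. Cluster 19 held 111 and 342 cells, or 64.2% and 27.5% of the luteal-like cells, of the controls, and 15 and 32 cells, or 4.55% and 10.96%, of those labelled Fosl2cKO. The make-up of the class therefore moved with the condition, so values are also given within each cluster.

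Within cluster 9, Wnt4 was at 112 and 70.4 CPM against 6.21 and 8.63 CPM, a log2FC of -3.66 (SE 0.50, adjusted p = 0.0979) that passed, and 0.0239% of the genes tested in this cluster passed. The 1st Fosl2F/F library had 62 cells and 19 Wnt4 UMIs there, and its Akr1c18 stood at 2641 CPM in this cluster against at most 4.97 CPM in the other 3. Within cluster 19, Wnt4 was at 159 and 160 CPM against 7.79 and 13.0 CPM, the latter from 3 and 8 UMIs, and no test was made because 1 library had fewer than 20 cells. Wnt4 was thus low in the libraries labelled Fosl2cKO in both clusters.

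The other genes did not follow a single direction. Lgr6 was at 0 and 2.33 CPM against 25.0 and 150 CPM in cluster 9 (adjusted p = 0.394) and at 29.1 and 12.9 CPM against 182 and 448 CPM in cluster 19. Sfrp2 was at 52.9 and 1.94 CPM against 5.61 and 78.4 CPM in cluster 9, but at 400 and 334 CPM against 986 and 901 CPM in cluster 19. Sfrp4 was at 7482 and 1620 CPM against 268 and 1861 CPM in cluster 9, and at 6457 and 3736 CPM against 1248 and 1367 CPM in cluster 19.

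**Figure D4:**
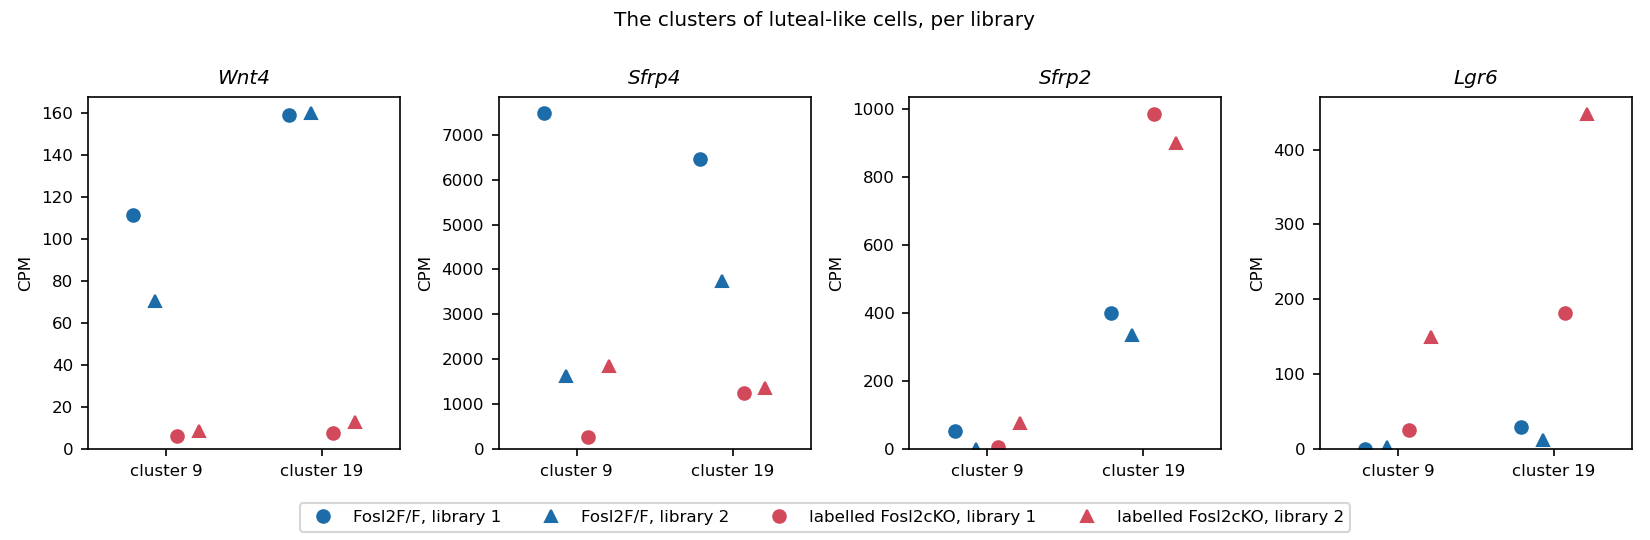
Level (CPM, linear axes from 0) of Wnt4, Sfrp4, Sfrp2 and Lgr6 per library in cluster 9 and cluster 19 of the luteal-like cells, colours and symbols as before. In both clusters the red points of Wnt4 (at most 13.0 CPM) lie below the blue ones (at least 70.4 CPM), and those of Lgr6 lie above.

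Lef1 (ENSMUSG00000027985, chromosome 3 from 131110471 to 131224356, plus strand, 12 exons), a nuclear partner of beta-catenin that T cells use in their development, was at 405 and 486 CPM against 490 and 478 CPM in NK or T-like cells. Endothelial-like cells followed with 125 and 107 CPM against 130 and 123 CPM, below every library of the former. Neither class differed between conditions beyond the spread between libraries, with a log2FC of 0.07 (SE 0.21, adjusted p = 0.921) and 0.13 (SE 0.24, adjusted p = 0.9998).

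In stromal-like cells Lef1 was at 27.0 and 24.3 CPM in the controls and 6.67 and 10.3 CPM in those labelled Fosl2cKO, from 74 to 220 UMIs a library. The groups did not overlap and the log2FC was -1.61 (SE 0.32), with an adjusted p = 0.114 that missed the threshold. It passed in 9 of 17 alternatives, over which the adjusted p ran from 5.71e-04 to 0.777, among them the removal of either library labelled Fosl2cKO (0.0512 without the 1st). The level was highest in cluster 17, at 69.9 and 42.0 CPM against 9.58 and 26.5 CPM, and was at 11.1 and 21.7 CPM against 6.72 and 5.50 CPM in cluster 0, which holds most stromal-like cells. In the same stromal-like cells the 8 NK or T markers summed to 4.36 and 3.098 CPM against 3.79 and 1.61 CPM and the 6 endothelial markers to 91.6 and 92.1 CPM against 68.0 and 90.3 CPM, while the 7 pericyte or smooth muscle markers summed to 1573 and 1020 CPM against 764 and 678 CPM. Lef1 itself was at 0.360 to 3.55 CPM in pericyte or smooth muscle-like cells, below every stromal-like library. The part of other cell types in the stromal-like values of Lef1 was not tested.

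Axin2 (ENSMUSG00000000142, chromosome 11 from 108920349 to 108950783, plus strand, 11 exons), a target of canonical Wnt signalling that feeds back on it, was highest in epithelial-like cells, at 50.4 and 38.9 CPM against 45.9 and 72.3 CPM. Cluster 2 came next, at 26.7 and 34.7 CPM against 34.5 and 28.7 CPM, then stromal-like cells at 17.8 to 23.7 CPM, and these classes did not overlap with each other. From pericyte or smooth muscle-like cells (11.9 CPM in the mean) downward, neighbours overlapped. The 3 leading classes of Axin2 also held the 3 highest mean levels of Wnt4, and the log2 levels of both genes over 13 classes had a Pearson correlation of 0.79. Between conditions no difference passed where Axin2 was highest, with a log2FC of 0.35 (SE 0.33) in epithelial-like cells, 0.01 (0.26) in cluster 2 and 0.01 (0.30) in stromal-like cells. In luteal-like cells it was at 5.99 and 4.03 CPM against 13.3 and 11.1 CPM, a log2FC of 1.19 (SE 0.44, adjusted p = 0.426).

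GC-like cells were divided into 6 named subclasses and 2 unnamed clusters. Wnt4 was concentrated in cumulus-like cells, which surround the oocyte, at 88.3 and 116 CPM against 167 and 112 CPM, and its mean of 121 ± 33 CPM compared with 5.81 ± 3.18 CPM in mural-like cells (SD, n = 4). Axin2 had its highest level in the same subclass with little spread, at 18.0 and 19.5 CPM against 20.2 and 20.2 CPM, and was at 3.76 to 5.05 CPM in mural-like cells. Rspo1 was low throughout but highest in cumulus-like cells as well, at 2.62 and 3.601 CPM against 6.90 and 4.81 CPM. Lgr6 was placed otherwise, with its highest level in atretic-like cells, at 8.06 and 21.8 CPM against 24.2 and 39.2 CPM, and 0.261 to 1.12 CPM in cumulus-like cells.

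**Figure D5:**
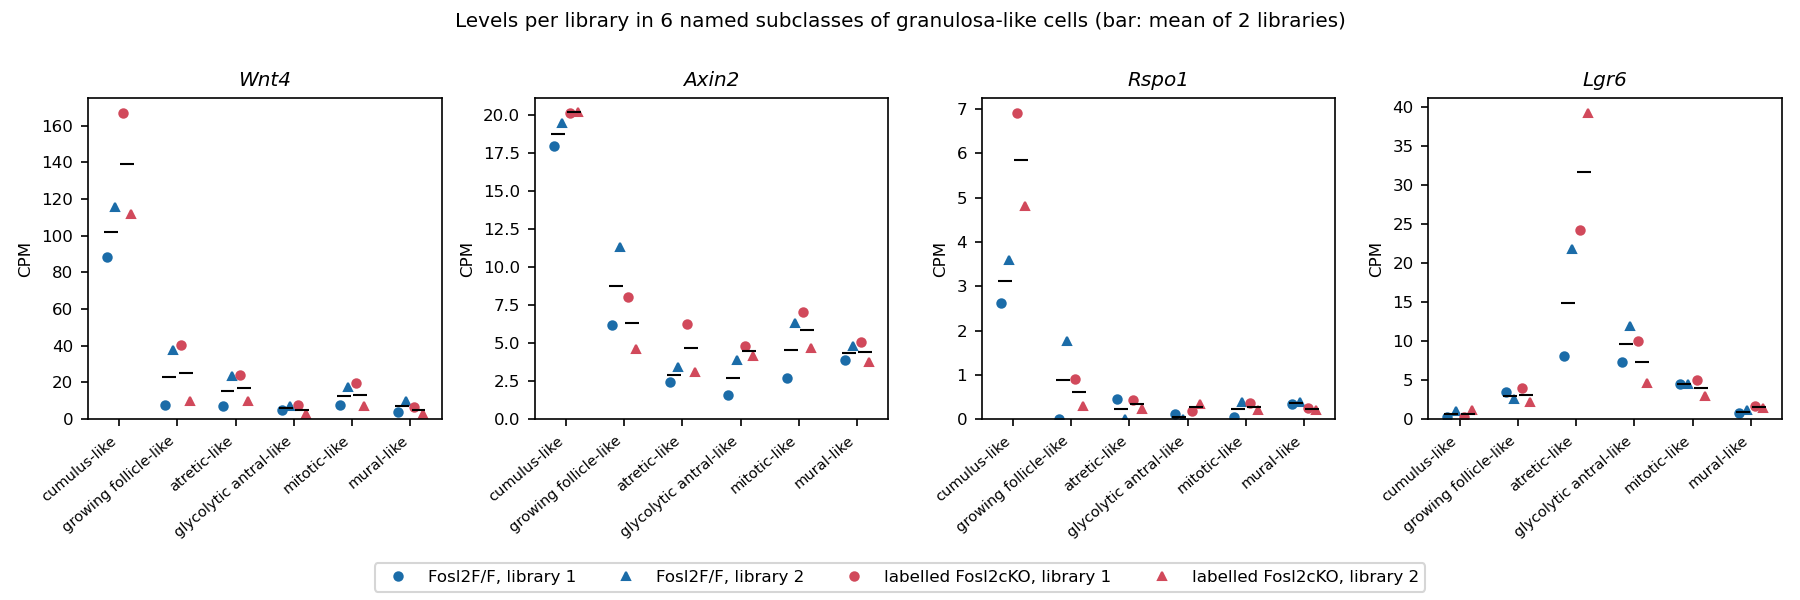
Level (CPM, linear axes from 0) of Wnt4, Axin2, Rspo1 and Lgr6 per library in 6 named subclasses of GC-like cells, with a bar for the mean of each group. Wnt4, Axin2 and Rspo1 peak in cumulus-like cells and Lgr6 in atretic-like cells.

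None of the 43 gene-by-subclass tests that could be made passed the threshold, beside 0.00957% of all gene-by-subclass tests. An unadjusted p under 0.05 was found in 11 of the 43, beside 5.6% of all gene-by-subclass tests. The genes were chosen with earlier results known, so this count cannot test the set. Wnt4 in cumulus-like cells had a log2FC of 0.40 (SE 0.23, adjusted p = 0.999), Axin2 of 0.05 (SE 0.23) and Lgr6 in atretic-like cells of 1.12 (SE 0.45, adjusted p = 0.932). Atretic-like cells joined GC clusters 2 (2055 cells) and 8 (192 cells), and Lgr6 is itself a leading gene of the latter, which had none of the atretic markers among its 10 leading genes. In GC cluster 2 alone the groups overlapped for Lgr6 (log2FC 0.76, SE 0.50, adjusted p = 0.906). The groups did not overlap in 19 of the 43, beside 34% of all gene-by-subclass tests, and 8 of the 19 were those of Sfrp4, lower in each subclass.

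To compare cells at 1 depth, the share of cells with a UMI was taken after thinning each cell to 2000 UMIs. This left out 20.3% of the cells of the 2nd Fosl2F/F library and 4.23% to 6.17% of the others. These are shares over whole libraries, not over single classes such as NK or T-like cells, which had a median of 2843 UMIs. Wnt4 was found in 32.2% ± 4.3 of the cells of cluster 2 (SD, n = 4) and in 0.602% to 2.32% of NK or T-like cells, which are not known to make it. The unthinned shares in cluster 2 were 45.5% to 79.2%. Lef1 was found in 39.8% ± 1.1 of NK or T-like cells (35.9% to 50.8% unthinned), Lgr6 in 24.9% ± 4.6 (50.2% to 73.0%) and Rspo1 in 15.9% ± 6.9 (29.3% to 74.0%) of epithelial-like cells. Sfrp4 was found in 69.4% ± 32 of luteal-like cells (50.6% to 95.4%), and in 0.746% to 22.7% of NK or T-like cells. Wnt4 was found in 18.9% ± 4.90 of cumulus-like cells (31.9% to 76.4%).

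Over all classes, 71 of the 130 possible gene-by-class tests could be made for the 10 genes, since the rest had too few UMIs. The 5 tests of Sfrp4 passed, beside 0.137% of the 139884 tests over all genes and classes. An unadjusted p under 0.05 was found in 26 of the 71, beside 5.7% of all tests. The 10 genes were chosen with earlier results of these data known and all tests share the same libraries, so these counts cannot test the set. The groups did not overlap in 32 of the 71, higher in 15 and lower in 17, beside 32.8% of all tests. Lower cases came mainly from Sfrp4 (9) and Lef1 (3), and higher ones from Lgr6 and Sfrp1 (4 each). The difference in the condition effect between GC-like and stromal-like cells passed for none of the 10 genes and for 0% of the 14103 genes tested in limma, with 1 of the 10 (Sfrp2) and 619 of all genes under an unadjusted p of 0.05. For Wnt4 it was 0.16 (SE 0.73) and for Axin2 0.08 (SE 0.29) on the log2 scale.

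Among the other 76 genes of the pathway list, 1 of 467 gene-by-class tests passed. The groups did not overlap in 158, higher in 125 and lower in 33, beside 32.8% of the tests over all genes in either direction. Of all genes, 2097 of 13542 were higher and 1792 lower without overlap in cluster 2. In luteal-like cells 2892 of 12831 were higher and 3147 lower, in GC-like cells 2733 of 17270 and 2720, and in stromal-like cells 2135 of 14423 and 2176. The list was chosen with earlier results known and its tests share the same libraries, so these counts cannot test the list. The ligand Wnt6 rose in cluster 2, at 69.0 and 45.1 CPM (scaled by TMM) in the controls against 156 and 154 CPM in those labelled Fosl2cKO (log2FC 1.45, SE 0.29, adjusted p = 0.0819). It was higher without overlap in all 7 classes in which it was tested, beside 32.8% of all gene-by-class tests in either direction. The difference between its GC-like and stromal-like effects was -0.002 (SE 0.54) on the log2 scale. The part of RNA from other cells in these values was not tested, and no alternatives are given for the Wnt6 call in cluster 2. Its largest log2FC was in luteal-like cells, in which 47.1% of all genes did not overlap and Wnt6 was at 1.82 and 2.51 CPM (scaled by TMM) against 58.5 and 35.7 CPM (4.37, SE 0.43, adjusted p = 0.157), in the same cells in which Wnt4 was lower. Within cluster 9 it was at 0 and 2.25 CPM against 53.9 and 27.6 CPM, and within cluster 19 at 1.80 and 3.07 CPM against 169 and 130 CPM.

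By role, 11 of 19 ligands of the list reached 5 CPM in at least 1 class, as did 15 of 16 receptors and co-receptors, 8 of 15 secreted or surface inhibitors, and all 10 genes of the cytoplasmic cascade. The leading class did not overlap the next for 7 ligands, 7 receptors, 4 inhibitors and 0 genes of the cascade. Epithelial-like cells were the leading class of 15 of the 68 genes that reached 5 CPM, and 8 of the 15 did not overlap the next class. Stromal-like cells led for 12, lymphatic endothelial-like for 9, luteal-like for 7, endothelial-like for 5, and GC-like cells and cluster 2 for 4 each. The share of all genes led by each class was not taken, so these counts only describe the list. Other genes with a marked leading class were Wnt2b (30.1 CPM in epithelial-like cells), the Wnt target Sp5 (49.2 CPM, 33.1 times the next class, also epithelial-like), Wls, which carries Wnts to the cell surface (520 CPM, epithelial-like), Wnt2 (24.8 CPM in lymphatic endothelial-like cells), Dkk2 (47.4 CPM in endothelial-like cells), Nkd2 (25.7 CPM in stromal-like cells) and Tcf7 (117 CPM in NK or T-like cells).

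The genes whose mean log2(CPM + 1) over 13 classes was most like each member were found by Pearson correlation. For Sfrp4 these were Ptgfr, the receptor for prostaglandin F2 alpha (0.97), Kcnab3 (0.96) and Bpifb6 (0.96), for Sfrp2 Cemip (0.97), Ak1 (0.96) and Pdzrn4 (0.95), and for Rspo1 Tmem132c (0.99), Mir670hg (0.98) and Bnc1 (0.98). Sfrp1 was most like Prdm6, Islr and Ror2 (0.95 to 0.96), the last a Wnt receptor of the list. For Wnt4 the genes were D430042O09Rik, Tmem53 and Kcnu1 (0.90 to 0.91), for Wnt5a Ereg, Map1lc3a and Rerg (0.91 to 0.92), for Lgr6 Dtna, Gm36283 and Prkg2 (0.89 to 0.93), for Fzd1 Gm19610, Gm26911 and Gm43948 (0.94 to 0.95), for Lef1 Inpp1, Ly6a and B230217O12Rik (0.83 to 0.88), and for Axin2 AU040320, 9530026P05Rik and Usp53 (0.92 to 0.93). Among the 10 genes, the closest pairs were Fzd1 with Sfrp1 (0.87) and Sfrp2 with Sfrp4 (0.85).

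The genes overlap other annotated genes in places: Wnt5a with Gm2670, Rspo1 with Gm12930, Sfrp2 with Gm26771, Lef1 with Gm43352 and Axin2 with Gm11670 on the other strand, and Lef1 with Gm42449 on the same strand. The use of strand in the counting is not given in the sources used here. Promoters from 250 bases before to 50 after the start site were read from RefSeq (GRCm38.p6) for 7 of the 10 genes, 10 promoters in all, because TCF and LEF factors act on DNA through a short motif and Fosl2 belongs to the AP-1 family. The letters CTTTGA, on either strand, are in 16% of all 32851 promoters of this length, and TGANTCA, on either strand, in 7.81%. The first was found in 1 of 4 promoters of Lef1 and in that of Fzd1, shown here with the match in capitals, and the second in none.

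Lef1, chr3:131156104-131156131, plus strand, 180 bases before the start site: aaatacatggTCAAAGgaaaataggtat

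Lef1, chr3:131156164-131156191, plus strand, 120 bases before the start site: ttgtctgttcTCAAAGtcaggtcttgca

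Fzd1, chr5:4758439-4758466, minus strand, 242 bases before the start site: cgcagcacTCAAAGtagcagtctgtgac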

How the data were processed

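Per the labels and methods, the authors aligned reads to GRCm38 with CellRanger (7.1.0 in the file headers, another version in the methods) and deposited UMI counts per gene and barcode for 4 libraries, whole numbers without normalization. Whether the CellBender correction described is in these counts is not given in the sources used here. Cells passing the filters of the methods (500 genes, 1000 UMIs, mitochondrial share 10%, hemoglobin share 0.1%) were kept, and those with the highest Scrublet scores were left out (0.8% per 1000 cells). Clusters came from Seurat 5.3.0 after SCTransform and integration (resolution 0.8, GC-like cells 0.5); some limits of the naming rule were set after the clusters were seen. UMIs summed per class and library were compared with edgeR 4.0.16 (TMM, filterByExpr), with limma 3.58.1 for the difference between classes and DESeq2 1.42.0 as an alternative, with Benjamini-Hochberg adjustment. The edgeR step was tested on simulated data. The 10 genes, lists and markers were chosen with earlier results of these data known. Besides the 10 genes and Fosl2, genes named by rule are those of the pathway list past the threshold in a class, up to 3 per role with the largest ratio of leading to next class, and the 3 most alike per gene; cluster-leading, marker and Akr1c18 values were added after they were seen. Alternatives changed cells, clustering, scaling, filters, test or threshold, left out each library, or took the replicate number as a block.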

Additional observations from a re-analysis of the deposited data

How the results depend on the processing

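Of the 10 genes over all classes, 5 gene-by-class tests passed. This became 3 with doublets kept, 2 with the pathway genes kept among the clustering features, 10 with DESeq2, 19 with no filter on low counts, 3 with an adjusted p under 0.05 and no minimum fold, and 5 to 13 when 1 library was left out. With the replicate number as a block it was 6, all of Sfrp4, with GC-like and macrophage-like cells in and stromal-like cells out; with 2 libraries a group the deviations give a single correlation (-0.16), the labels name nothing that same-numbered libraries share, and a crossed replicate block, chosen after seeing the data, gave 14. The 8 genes whose leading class did not overlap the next became 3 with finer clusters, 6 with doublets kept, 6 without integration and 8 to 9 without 1 library. Of the 30 most alike genes, 6 were shared with a Spearman ranking. In the leading classes the log2FC of Fzd1 in stromal-like cells turned to -0.46 without integration and ran from -0.26 to 0.54 without 1 library. Likewise without 1 library, that of Wnt4 in cluster 2 ran from -0.38 to 0.28 (0.24 without the 2nd library labelled Fosl2cKO), Lgr6 in epithelial-like cells from -0.16 to 0.47, Axin2 there from 0.035 to 0.61, Rspo1 there from 0.33 to 1.01, Sfrp1 in stromal-like cells from 0.58 to 1.39, Wnt5a in cluster 2 from 0.065 to 0.33, Sfrp2 in luteal-like cells from -2.04 to 0.53 and Lef1 in NK or T-like cells from -0.033 to 0.19. The cause of these shifts was not tested. The difference between GC-like and stromal-like cells passed for 0 genes of the 10 in each alternative run. Classes with few cells or UMIs limit what could be tested.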

Other observations

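Cluster 26, led by oocyte genes, had as few as 17 cells in a library and was not tested. Axin2 was at 86.9 and 87.9 CPM there in the Fosl2F/F libraries and at 229 and 27.9 CPM in those labelled Fosl2cKO, from 8, 28, 10 and 5 UMIs, a mean of 108 CPM beside 51.9 CPM in epithelial-like cells. After thinning to 2000 UMIs, 15.3% ± 14.2 of its cells (SD, n = 4) had an Axin2 UMI, against 8.15% ± 1.92 of epithelial-like cells. Lef1 was at 109 and 56.5 CPM against 137 and 106 CPM, from 6 to 19 UMIs a library.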
